A study of Homo sapiens with 9 samples.

Results

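The WNT pathway genes of human spinal cord organoids are described here: the WNT ligands, their Frizzled and LRP receptors, the secreted SFRP and DKK modulators, the R-spondin ligands and LGR receptors, and a small set of genes that the pathway regulates and that act back on it. Members were the protein-coding genes whose symbol belongs to the WNT, FZD, SFRP, DKK, RSPO or LGR families, together with LRP5, LRP6, AXIN2, LEF1, NKD1, NOTUM, RNF43 and ZNRF3. The rule found 51 of the 31589 genes in the deposited tables, namely 18 WNT, 10 FZD, 2 LRP, 4 SFRP, 4 DKK, 4 RSPO, 3 LGR and 6 feedback genes. The rule itself reads gene symbols only. Spinal cord organoids (SCOs) are three-dimensional cultures grown from induced pluripotent stem cells through a neuromesodermal stage, and their RNA was measured in bulk in 9 libraries. The labels give 3 libraries of Vehicle, which the titles call FGF, 3 of VPA and 3 of VPA+Rapamycin, each after 96 h. VPA is valproic acid, an antiepileptic drug that inhibits histone deacetylases, and Rapamycin inhibits the kinase mTOR. Every library is labelled as the WTC line with genotype WT. The study's methods describe clones of WTC with a reporter cassette inserted at SOX10, some of which also carry small changes on the other SOX10 allele, with several organoids pooled from each clone. The labels do not tie a replicate number to a clone, and no library of Rapamycin without VPA was analysed here.

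WNT ligands are secreted lipid-modified proteins that bind Frizzled receptors together with LRP5 or LRP6. In the canonical branch this stops the destruction complex from degrading beta-catenin, which then enters the nucleus and activates genes with TCF and LEF factors, whereas other ligands such as WNT5A act mainly through planar cell polarity and calcium signalling. SFRPs bind WNT ligands outside the cell, DKK1 blocks LRP5 and LRP6, and R-spondins acting through LGR receptors keep Frizzled at the surface by removing the ubiquitin ligases RNF43 and ZNRF3. In the neural tube the roof plate secretes WNT1 and WNT3A, and WNT signals take part in caudal identity, in the growth of progenitors and in the formation of the neural crest. The comparisons below ask how VPA altered this set and what the addition of Rapamycin did.

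The libraries held 15290436 to 17417478 counted reads, with 5.14 to 7.41% of them on mitochondrial genes. A normalised count is a read count scaled with TMM factors to the mean effective library size of the 9 libraries, and 3 reads, the level that a count of 0 allows, stand for 2.81 to 3.27 normalised counts, which covers counting error only. Levels of different genes are compared as FPKM, reads scaled to gene length and to the library's total, as the authors deposited them. As a check of the labelled tissue, neural progenitor markers such as SOX2, PAX6 and NES summed to 585 to 910 FPKM per library, and forebrain and midbrain markers to at most 8.28. Spinal HOX genes (HOXB4, HOXB6, HOXC6, HOXB8, HOXC8 and HOXA9) summed to 98.4 to 156 FPKM in vehicle, 61.4 to 68.2 in VPA and 78.5 to 96.5 in VPA+Rapamycin. Vehicle replicate 3 stood apart from the other vehicle libraries. Its roof plate and dorsal markers (LMX1A, MSX1, GDF7, PAX3, ZIC1 and OLIG3) summed to 21.0 FPKM against 4.66 and 5.14 in the other vehicle libraries, and its neuronal markers to 465 against 268 and 354. Where leaving out this library changed a direction or moved an estimate markedly, the value without it is given.

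The promoters of a few members are shown first, with their content of CpG dinucleotides. Only 1 member with a window, DKK1, which passed in no comparison, holds the letters that TCF and LEF factors bind. RefSeq windows of GRCh38.p14, from 250 bases before to 50 after a start site, were found for 32 of the 51 members, and 19 of these start within 100 bases of the gene start in the deposited tables. They held a median of 28 CpG (interquartile range 17.25 to 38.5), against 14 (3 to 28) over 27305 promoters. The windows of RSPO4 (chr20:1002262-1002561, minus strand, 46 CpG) and FZD4 (chr11:86955346-86955645, minus strand, 40 CpG), which VPA raised, and of FZD9 (chr7:73433528-73433827, plus strand, 31 CpG), which VPA lowered, are printed 5′ to 3′ with each CpG in capitals. These lie above the median of the members, whereas LEF1, which VPA raised, has 9 CpG and WNT5B, which VPA lowered, has 10, fewer than the median of all promoters. The start sites of the LEF1 and WNT5B windows lie 2655 and 87165 bases downstream of the gene start in the deposited tables. They may therefore belong to other start sites than those in use here, whereas those of RSPO4, FZD4 and FZD9 lie within 100 bases. FZD1, which VPA raised and whose window also starts within 100 bases, has 25 CpG. WNT11, WNT10B, FZD7, FZD3, LRP6, SFRP1 and NKD1, which VPA also moved, had no window.
RSPO4: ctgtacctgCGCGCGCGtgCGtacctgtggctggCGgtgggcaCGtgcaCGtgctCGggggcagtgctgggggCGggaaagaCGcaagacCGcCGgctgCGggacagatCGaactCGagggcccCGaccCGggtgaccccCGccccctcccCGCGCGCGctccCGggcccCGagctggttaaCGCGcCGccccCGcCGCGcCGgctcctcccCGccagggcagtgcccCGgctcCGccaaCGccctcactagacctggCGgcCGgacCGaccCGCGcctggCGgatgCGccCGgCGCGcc
FZD4: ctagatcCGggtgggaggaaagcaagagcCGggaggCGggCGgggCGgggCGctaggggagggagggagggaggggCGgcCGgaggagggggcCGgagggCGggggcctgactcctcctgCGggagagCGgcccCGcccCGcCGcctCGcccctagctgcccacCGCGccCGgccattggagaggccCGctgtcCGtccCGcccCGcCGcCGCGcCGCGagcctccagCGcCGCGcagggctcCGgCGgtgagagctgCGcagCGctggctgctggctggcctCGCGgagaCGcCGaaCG
FZD9: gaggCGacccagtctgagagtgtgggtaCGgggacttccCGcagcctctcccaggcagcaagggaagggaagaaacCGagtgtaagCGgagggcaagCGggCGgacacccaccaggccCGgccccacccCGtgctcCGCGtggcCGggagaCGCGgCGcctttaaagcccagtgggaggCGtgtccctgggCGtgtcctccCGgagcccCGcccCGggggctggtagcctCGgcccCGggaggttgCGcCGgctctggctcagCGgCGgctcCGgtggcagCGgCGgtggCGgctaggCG
The TCF/LEF motif CTTTGA, searched on both strands, was in 1 of the 32 windows, 3.12%, against 13.1% of all promoters. That window belongs to DKK1 (chr10:52314031-52314330, plus strand), a known target of beta-catenin, and its 2 matches, in capitals below, lie before the start site, the first of them on the opposite strand and so read as its complement.
DKK1: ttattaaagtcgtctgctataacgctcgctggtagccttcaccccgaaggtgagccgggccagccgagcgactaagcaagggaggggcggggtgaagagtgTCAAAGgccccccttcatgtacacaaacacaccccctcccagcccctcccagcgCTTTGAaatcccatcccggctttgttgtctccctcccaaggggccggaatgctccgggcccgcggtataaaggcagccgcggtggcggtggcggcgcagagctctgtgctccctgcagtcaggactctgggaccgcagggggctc
The AP-1 motif TGANTCA was in 0 of the 32 windows, against 7.76% of all promoters. A match is a run of letters only, and none in this window says nothing about a factor's binding elsewhere. No window was found for AXIN2, NKD1, NOTUM or ZNRF3, so these feedback genes were not searched. The member windows also held more CpG than all promoters, and the shares with a motif were not matched for this.

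In vehicle organoids the summed level per length was 1168 to 1307 FPKM per library for the SFRP antagonists and 485 to 599 for the Frizzled receptors, against 47.9 to 53.1 for the ligands. A few members set these sums, and FZD1, FZD4, FZD5, FZD6, FZD8, FZD10, SFRP4 and SFRP5 each lay below the leading ligand. SFRP2 had the highest level of all members at 1009 FPKM, followed by FZD7 at 309, SFRP1 at 242 and FZD2 at 151. LGR4, an R-spondin receptor, led its family at 86.4 FPKM, ahead of LGR5 at 23.7, and the co-receptors LRP6 and LRP5 stood at 17.1 and 14.7, with overlapping libraries. DKK3, a divergent member that does not act on LRP6 as DKK1 does, stood at 15.2 FPKM against 0.751 for DKK1. The ligands were led by WNT7A at 19.6 FPKM and the R-spondins by RSPO1 at 0.443, a mean that vehicle replicate 3 set. AXIN2, a scaffold of the destruction complex that is also a direct target of the pathway, had 3.08 FPKM, and ZNRF3 led the feedback genes with 5.81.

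**Figure D1:**
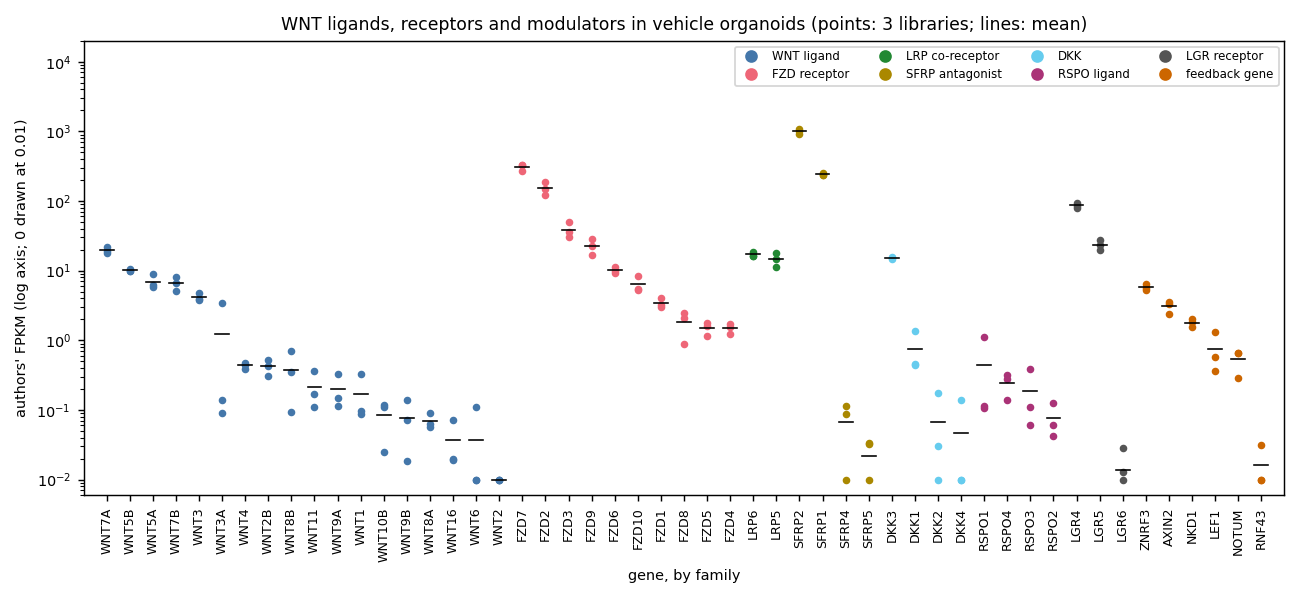
Levels of all 51 members in the 3 vehicle libraries, as the authors' FPKM on a log axis, grouped by family. Points are libraries and lines their mean, and values of 0 are drawn at 0.01. The SFRP and FZD families reach above 100 FPKM, whereas no ligand exceeds 25, and WNT3A and RSPO1 each have 1 library far above the other 2.

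Low expression kept 12 members out of the test of VPA against vehicle, which used edgeR's default filter on low counts: WNT1, WNT2, WNT6, WNT8A, WNT9B, WNT16, RSPO2, RSPO3, DKK4, SFRP5, LGR6 and RNF43. WNT3A was also left out of the test of VPA+Rapamycin against VPA, and WNT3A and SFRP4 of that against vehicle. Among the 12, the highest value in any library was 20.7 normalised counts, for RSPO3 in vehicle replicate 3. WNT16 stood at 3.92, 1.09 and 1.04 normalised counts in the vehicle libraries, 8.85, 7.11 and 10.3 in the VPA libraries and 0, 3.84 and 0 in the VPA+Rapamycin libraries, so that the VPA libraries lay above all others. WNT6 stood at 0, 0 and 3.11 normalised counts in the vehicle libraries, 8.85, 8.12 and 9.37 in the VPA libraries and 7.84, 6.72 and 18.7 in the VPA+Rapamycin libraries, and here the treated libraries lay above vehicle. These low values were not tested.

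VPA raised 11 and lowered 6 of the 39 members tested (edgeR's quasi-likelihood test, Benjamini-Hochberg adjusted p of at most 0.05 over 17360 genes). This is 28.2% and 15.4% of the members tested, where 16.4% of all genes tested were called higher and 15.7% lower. Of the protein-coding genes tested, to which all members belong, 18.9% were called higher and 15.7% lower. The median log2 fold change was 0.22 over the members tested and -0.003 over all genes. An unadjusted p under 0.05 was reached by 23 of the 39. The libraries of the 2 groups did not overlap for 23 of the 39 members (59%), against 47.5% of all genes tested. Of the members tested, 9 did not reach the filter in both groups on their own (WNT3A, RSPO1, WNT8B, RSPO4, WNT11, WNT9A, WNT10B, DKK2 and SFRP4), and 4 of the 11 raised genes are among them. WNT3A and DKK2 reached it in neither group alone. Where both groups reached the filter, 7 of 30 members rose and 6 fell. Requiring at least 10 counts in every library also left 30 members, with 7 higher and 6 lower. Under that setting 2500 of all 15173 genes tested were called higher and 2578 lower. The count of raised members was 6 without vehicle replicate 2, 7 without VPA replicate 2, 6 without VPA replicate 3 and 15 without vehicle replicate 3, and that of lowered members was 3 without vehicle replicate 2, VPA replicate 1 or VPA replicate 2 and 8 without vehicle replicate 3. Calls over all genes moved as well. In the order of these refits, 1968, 1791, 1831 and 3326 genes were called higher, against 2840 with every library. The lower calls numbered 1929, 1708, 1599 and 3150, against 2728. Since the RNA is from whole organoids, fewer cells of a type and less RNA per cell cannot be told apart.

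**Figure D2:**
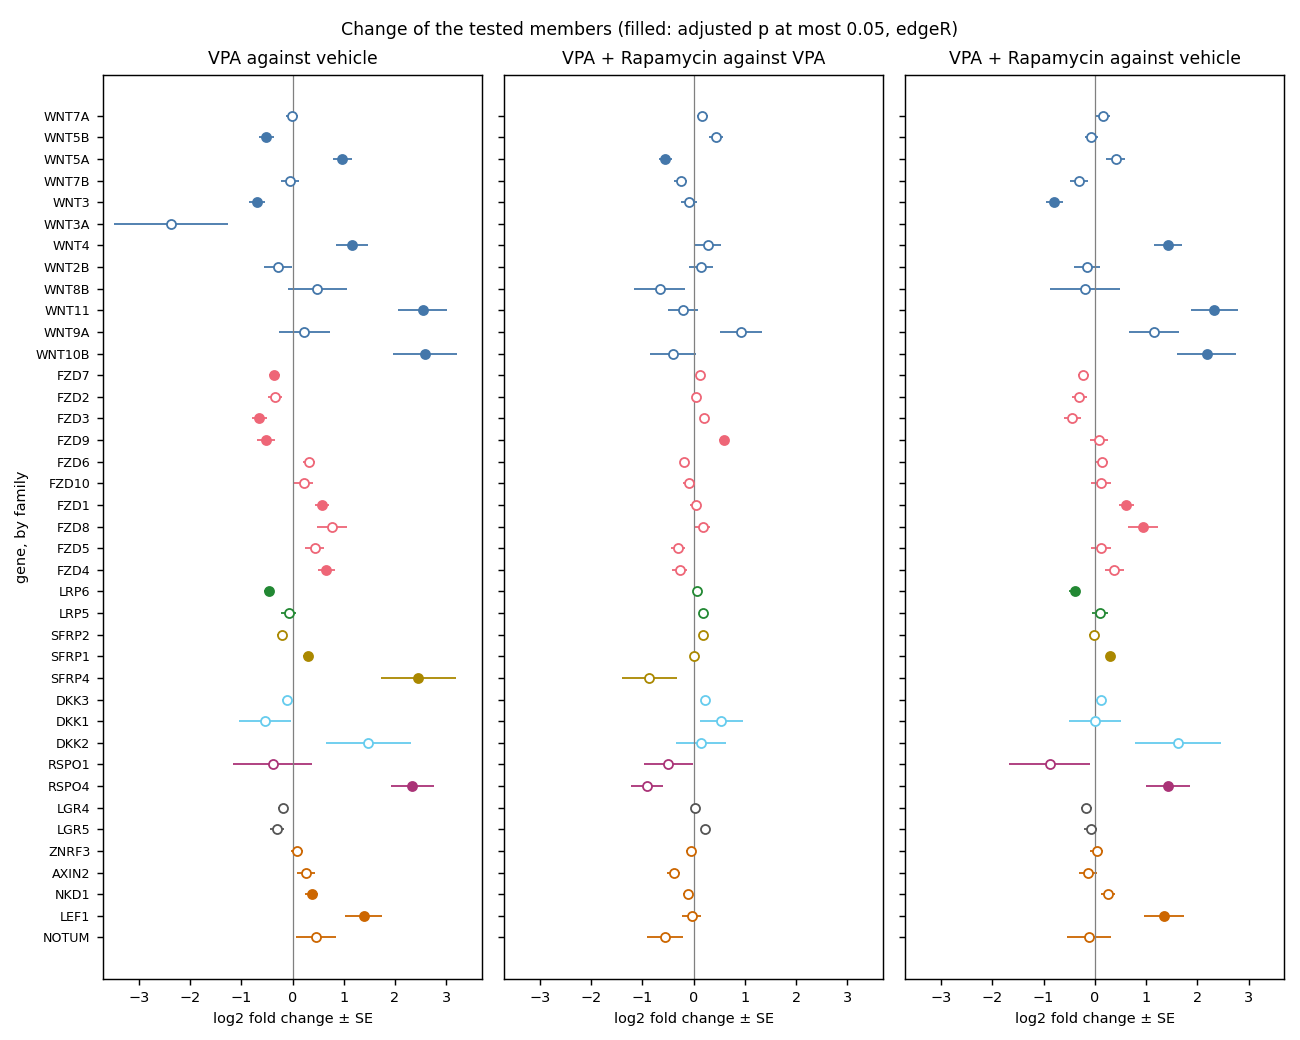
Log2 fold change ± standard error of every member tested, in the 3 comparisons side by side, with genes ordered by family and filled points for an adjusted p of at most 0.05 (edgeR). VPA against vehicle has 17 filled points, VPA+Rapamycin against VPA has 2, and VPA+Rapamycin against vehicle has 10. The comparisons share libraries, so the panels are not independent.

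Among the ligands, VPA shifted the balance between the related genes WNT5A and WNT5B. WNT5A (ENSG00000114251, chr3:55465715-55490539, minus strand, GRCh38), a non-canonical ligand of elongating tissues, rose 1.96-fold. WNT5A stood at 1111, 706 and 755 normalised counts in the vehicle libraries, 2055, 1608 and 1367 in the VPA libraries and 1275, 911 and 1227 in the VPA+Rapamycin libraries. Every VPA library lay above every vehicle library, and VPA+Rapamycin lay below VPA (log2 fold change 0.97 ± 0.19, adjusted p = 0.00292 for VPA against vehicle, edgeR). WNT5B (ENSG00000111186, chr12:1529891-1647243, plus strand) fell to 0.703 of its vehicle level. WNT5B stood at 769.8, 706 and 716 normalised counts in the vehicle libraries, 467, 431 and 639 in the VPA libraries and 622, 802 and 659 in the VPA+Rapamycin libraries. The VPA libraries lay below all vehicle libraries, and VPA replicate 3 overlapped with VPA+Rapamycin (log2 fold change -0.51 ± 0.15, adjusted p = 0.0251, edgeR). The call on WNT5B was lost without vehicle replicate 2, VPA replicate 1 or VPA replicate 2 (adjusted p = 0.0633 to 0.130). WNT5B overlaps FBXL14 on the opposite strand, whose mean count is 116% of its own, and the sources used here do not give whether strand was used in counting. Mesenchymal markers (COL1A1, COL1A2, COL3A1, LUM, PDGFRB, TWIST1 and PRRX1) moved beside WNT5A, with sums of 16.2 to 34.5 FPKM in vehicle, 60.3 to 76.7 in VPA and 26.6 to 38.9 in VPA+Rapamycin. Of these 7 markers 2, COL1A1 and COL1A2, were raised by VPA and 6 fell when Rapamycin was added, and their part in the WNT5A result was not tested.

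WNT3, a canonical ligand of the neural tube and of the caudal embryo, fell to 0.621 of its vehicle level with VPA (log2 fold change -0.69 ± 0.16, adjusted p = 0.00700, edgeR). WNT3 stood at 284, 272 and 342 normalised counts in the vehicle libraries, 180.0, 179.7 and 197 in the VPA libraries and 157, 184 and 178 in the VPA+Rapamycin libraries. The vehicle libraries lay above all treated libraries, which overlapped with each other. WNT3 (ENSG00000108379, chr17:46762506-46833154, minus strand) lies 46 bases from WNT9B, whose highest value in any library was 7.62 normalised counts. Neuronal markers (TUBB3, STMN2, DCX, ELAVL3, ELAVL4 and MAP2) were also lower, with sums of 268 to 465 FPKM in vehicle, 228 to 267 in VPA and 236 to 239 in VPA+Rapamycin, and their part in this result was not tested.

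Several ligands with low levels in vehicle rose with VPA. WNT11, a non-canonical ligand of gastrulation and mesodermal tissues, changed most clearly among them. WNT11 stood at 6.86, 4.36 and 14.5 normalised counts in the vehicle libraries, 46.2, 37.6 and 67.5 in the VPA libraries and 42.2, 41.3 and 47.7 in the VPA+Rapamycin libraries. The vehicle libraries were all below 15 and the treated libraries all above 37, a fitted change of 5.81-fold (log2 fold change 2.54 ± 0.48, adjusted p = 0.00243, edgeR), and without vehicle replicate 3 the estimate was 3.13 (adjusted p = 0.000138). WNT11 likewise reached the filter on low counts through the treated groups. WNT10B, a canonical ligand, behaved alike at a lower level. It too reached the filter in the treated groups and not in vehicle, so it was tested only because it is high there. WNT10B stood at 4.90, 1.09 and 5.18 normalised counts in the vehicle libraries, 22.6, 12.2 and 34.7 in the VPA libraries and 17.6, 19.2 and 15.6 in the VPA+Rapamycin libraries. VPA and vehicle libraries did not overlap, but the VPA libraries spread widely (log2 fold change 2.59 ± 0.63, adjusted p = 0.00979, edgeR), and the call was lost without VPA replicate 3 (adjusted p = 0.0625). WNT10B (chr12:48965340-48971763, minus strand) lies 6689 bases from WNT1, which had 3.75 to 16.2 normalised counts in VPA and 1.96 to 7.25 in vehicle. WNT4, which acts in the developing kidney and gonad and guides commissural axons in the spinal cord, rose 2.23-fold. WNT4 stood at 36.2, 29.4 and 33.1 normalised counts in the vehicle libraries, 51.1, 74.1 and 95.6 in the VPA libraries and 81.4, 109 and 76.7 in the VPA+Rapamycin libraries. The vehicle libraries lay closely together below every treated library (log2 fold change 1.16 ± 0.31, adjusted p = 0.0154, edgeR), and the call was lost without vehicle replicate 2, VPA replicate 2 or VPA replicate 3 (adjusted p = 0.0528 to 0.0847).

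The leading ligand in vehicle, WNT7A, a signal of neural progenitors, did not pass. WNT7A stood at 1445, 1655 and 1379 normalised counts in the vehicle libraries, 1316, 1438 and 1689 in the VPA libraries and 1368, 1868 and 1752 in the VPA+Rapamycin libraries. The conditions overlapped for WNT7A (log2 fold change -0.01 ± 0.12, adjusted p = 0.962, edgeR), and its estimate changed sign with upper-quartile normalisation, to 0.02. WNT7B did not pass either (log2 fold change -0.05 ± 0.18, adjusted p = 0.866). The summed ligand level was 47.9 to 53.1 FPKM in vehicle, 50.9 to 56.1 in VPA and 49.0 to 54.9 in VPA+Rapamycin, so the conditions overlapped while the composition differed. WNT5A made up 13.6 ± 2.88% of the summed ligand FPKM in vehicle, 25.1 ± 5.15% with VPA and 17.6 ± 3.85% with VPA+Rapamycin (SD, n = 3 each). WNT5B had 20.1 ± 0.614%, 13.1 ± 2.36% and 18.3 ± 1.88%, in the same order. WNT3 had 8.17 ± 0.934%, 4.74 ± 0.225% and 4.53 ± 0.110%, and WNT7A had 38.7 ± 5.84%, 35.8 ± 4.33% and 41.0 ± 4.07%.

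**Figure D3:**
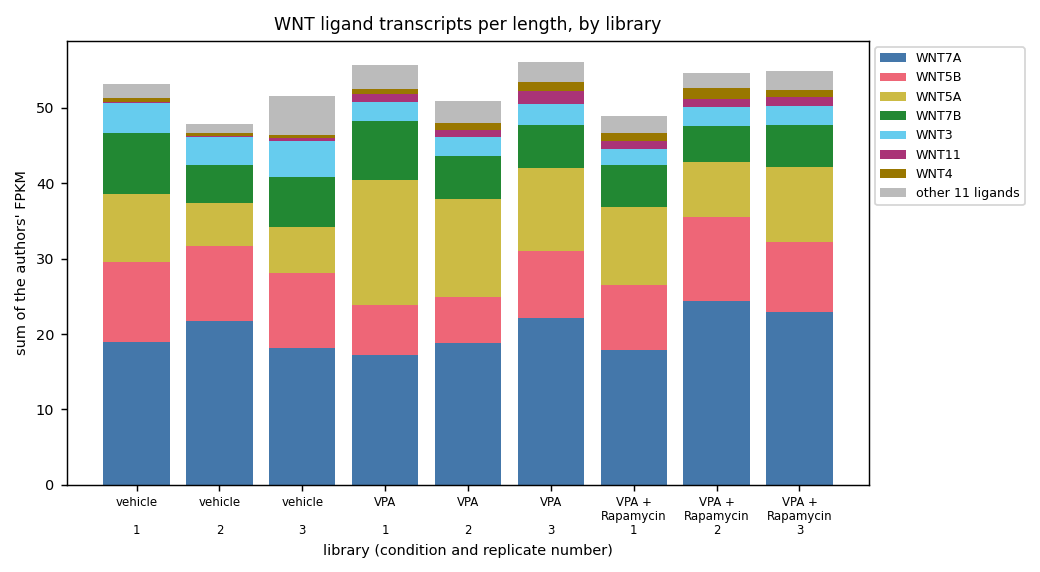
Summed FPKM of the 18 WNT ligands in each of the 9 libraries (stacked bars, linear axis from 0), divided by ligand. The bars have similar heights of 47.9 to 56.1 FPKM, and the WNT5A segment is tallest in the VPA libraries, where those of WNT5B and WNT3 are shorter than in vehicle. The grey segment of vehicle replicate 3 holds its WNT3A.

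The roof plate ligand WNT3A and the R-spondin RSPO1 depended on 1 library. WNT3A stood at 6.86, 4.36 and 169 normalised counts in the vehicle libraries, 19.7, 12.2 and 2.81 in the VPA libraries and 4.90, 6.72 and 0 in the VPA+Rapamycin libraries. Vehicle replicate 3 alone was high, and the change with VPA did not pass (log2 fold change -2.37 ± 1.11, adjusted p = 0.125, edgeR). Without that library the estimate was 1.01 (adjusted p = 0.355), and without vehicle replicate 1 it was -2.90 and passed (adjusted p = 0.0253), as it did when no filter was applied (adjusted p = 8.90e-05). RSPO1 stood at 5.88, 5.45 and 57.0 normalised counts in the vehicle libraries, 23.6, 17.3 and 11.2 in the VPA libraries and 9.80, 12.5 and 14.5 in the VPA+Rapamycin libraries. Its estimate was -0.39 with all libraries and 1.59 without vehicle replicate 3 (edgeR), and it passed in neither case (adjusted p = 0.735 and 0.0695). The roof plate and dorsal marker sum was likewise highest in this library, at 21.0 FPKM, against 2.08 to 5.14 in every other library.

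Of the R-spondins, RSPO4 rose with VPA. It reached the filter on low counts in the treated groups and not in vehicle, so it was tested only because it is high there. This R-spondin (ENSG00000101282, chr20:958452-1002264, minus strand), whose promoter is printed above, strengthens WNT signals and is known for nail development. RSPO4 stood at 12.7, 14.2 and 6.22 normalised counts in the vehicle libraries, 74.7, 53.8 and 40.3 in the VPA libraries and 31.4, 24.0 and 34.2 in the VPA+Rapamycin libraries. All VPA libraries lay above the VPA+Rapamycin libraries and these above vehicle (log2 fold change 2.34 ± 0.42, adjusted p = 0.00192, edgeR, a fitted 5.06-fold change). Per length its level was 0.245 FPKM in vehicle and 1.25 in VPA, below the leading ligands in both. Among the receptors of R-spondins, LGR4 and LGR5 did not pass (log2 fold change -0.19 ± 0.10, adjusted p = 0.145 for LGR4, and log2 fold change -0.30 ± 0.13, adjusted p = 0.108 for LGR5). LGR4 stood at 8351, 9021 and 9971 normalised counts in the vehicle libraries, 8196, 7721 and 7948 in the VPA libraries and 7934, 8141 and 8312 in the VPA+Rapamycin libraries. Its vehicle libraries lay above the VPA libraries, by a margin small against their spread, and it passed without vehicle replicate 1 (adjusted p = 0.0367).

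The Frizzled receptors, which bind the ligands, had 2 of 10 members raised and 3 lowered by VPA, where 16.4% of all genes were called higher and 15.7% lower. FZD4, known for the growth of retinal vessels, rose 1.58-fold. FZD4 stood at 211, 152 and 191 normalised counts in the vehicle libraries, 296, 297 and 281 in the VPA libraries and 292, 219 and 210.5 in the VPA+Rapamycin libraries. Every VPA library lay above every vehicle library, and VPA+Rapamycin replicate 1 was as high as VPA (log2 fold change 0.66 ± 0.16, adjusted p = 0.0108, edgeR). FZD4 (ENSG00000174804, chr11:86945679-86955391, minus strand) overlaps PRSS23 on the opposite strand, whose mean count is 1348% of its own, so part of its reads may belong to that gene. FZD1 rose 1.49-fold. FZD1 stood at 349.6, 376 and 463 normalised counts in the vehicle libraries, 583, 652 and 536 in the VPA libraries and 550.0, 586 and 683 in the VPA+Rapamycin libraries. Treated libraries lay above vehicle in every case (log2 fold change 0.58 ± 0.14, adjusted p = 0.0109, edgeR), and the call was lost without vehicle replicate 2 or VPA replicate 2 (adjusted p = 0.0501 to 0.0648). FZD8 was also higher in each VPA library than in each vehicle library, without passing (log2 fold change 0.77 ± 0.30, adjusted p = 0.0703, edgeR), and passed without vehicle replicate 1 (adjusted p = 0.0123) and with DESeq2 (adjusted p = 0.0379). It failed in 9 of 14 refits, and without vehicle replicate 3, its lowest library, the estimate was 0.44 (adjusted p = 0.0760).

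The Frizzled genes that VPA lowered include the most abundant receptor. FZD7 fell to 0.783 of its vehicle level. FZD7 stood at 21218, 20977 and 17283 normalised counts in the vehicle libraries, 14892, 15669 and 15995 in the VPA libraries and 17480.4, 17546 and 15816 in the VPA+Rapamycin libraries. All VPA libraries lay below all vehicle libraries (log2 fold change -0.35 ± 0.10, adjusted p = 0.0214, edgeR), with the call lost without vehicle replicate 2 or any of the VPA libraries (adjusted p = 0.0617 to 0.105). FZD3, a receptor of axon guidance and planar cell polarity, fell to 0.639 of vehicle. FZD3 stood at 7017, 8288 and 11339 normalised counts in the vehicle libraries, 5916, 5758 and 5339 in the VPA libraries and 6452, 5776 and 7365 in the VPA+Rapamycin libraries. Vehicle replicate 3, which also had the highest neuronal marker sum, was the highest of all, and the other vehicle libraries still lay above every VPA library (log2 fold change -0.65 ± 0.15, adjusted p = 0.00792, edgeR). Without vehicle replicate 3 its estimate was -0.43 and it still passed (adjusted p = 0.00169), and over all alternatives its adjusted p ranged from 3.63e-06 to 0.0470. FZD9 (ENSG00000188763, chr7:73433783-73436120, plus strand) fell to 0.700 of vehicle. FZD9 stood at 1125, 871 and 657 normalised counts in the vehicle libraries, 646, 564 and 646 in the VPA libraries and 859, 1004 and 937 in the VPA+Rapamycin libraries. Vehicle replicate 3 lay just above the highest VPA library (log2 fold change -0.51 ± 0.17, adjusted p = 0.0426, edgeR), and the call was lost without vehicle replicate 1, vehicle replicate 2 or any of the VPA libraries (adjusted p = 0.101 to 0.159) and with upper-quartile normalisation (adjusted p = 0.0602).

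Of the co-receptors, LRP6 fell and LRP5 did not pass. LRP6 (ENSG00000070018, chr12:12116025-12267012, minus strand), which binds WNT and is phosphorylated to recruit axin, fell to 0.731 of vehicle with VPA. LRP6 stood at 2785, 2818 and 3229.8 normalised counts in the vehicle libraries, 2135, 2082 and 2230.1 in the VPA libraries and 2329, 2032 and 2365 in the VPA+Rapamycin libraries. The vehicle libraries lay above all treated libraries (log2 fold change -0.45 ± 0.10, adjusted p = 0.00616, edgeR), and LRP6 passed in all 14 refits. LRP5 had 1504 ± 338 normalised counts with vehicle against 1425 ± 107 with VPA (SD, n = 3 each; log2 fold change -0.08 ± 0.15, adjusted p = 0.734, edgeR).

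Secreted antagonists rose or did not pass. SFRP1 rose 1.23-fold from a high level. SFRP1 stood at 20045, 18562 and 18886 normalised counts in the vehicle libraries, 23205, 23890.3 and 23428 in the VPA libraries and 24164, 23267 and 23409.8 in the VPA+Rapamycin libraries. The treated libraries lay above vehicle and overlapped with each other (log2 fold change 0.30 ± 0.08, adjusted p = 0.0199, edgeR), with the call lost without vehicle replicate 2 or any of the VPA libraries (adjusted p = 0.0629 to 0.101). SFRP2, the most abundant member, was lower in every VPA library than in every vehicle library without passing (log2 fold change -0.20 ± 0.09, adjusted p = 0.105, edgeR), and passed without vehicle replicate 3 (adjusted p = 0.0155). SFRP2 stood at 34759, 36188 and 31383 normalised counts in the vehicle libraries, 30012, 30488 and 28233 in the VPA libraries and 37272, 31600.5 and 32249 in the VPA+Rapamycin libraries. SFRP4 rose from very few reads. It reached the filter on low counts in VPA and not in vehicle or VPA+Rapamycin, so it was tested only because it is high there. SFRP4 stood at 6.86, 0 and 5.18 normalised counts in the vehicle libraries, 19.7, 13.2 and 35.6 in the VPA libraries and 3.92, 20.2 and 13.5 in the VPA+Rapamycin libraries. Its vehicle and VPA libraries did not overlap (log2 fold change 2.45 ± 0.73, adjusted p = 0.0247, edgeR), the call was lost without vehicle replicate 2, VPA replicate 1 or VPA replicate 3 (adjusted p = 0.0590 to 0.132), and without vehicle replicate 1 the estimate was 3.06. SFRP4 overlaps EPDR1 on the opposite strand, whose mean count is 678% of its own. None of the DKK genes passed. DKK3 had 1278 ± 47.5 normalised counts with vehicle against 1184 ± 50.9 with VPA (SD, n = 3 each; log2 fold change -0.11 ± 0.10, adjusted p = 0.442), and DKK1, whose promoter holds the TCF/LEF letters, overlapped between the conditions. DKK1 stood at 16.6, 16.3 and 49.7 normalised counts in the vehicle libraries, 18.7, 24.4 and 14.1 in the VPA libraries and 33.3, 16.3 and 33.2 in the VPA+Rapamycin libraries. Vehicle replicate 3 alone was high, and the estimate of -0.53 (adjusted p = 0.450) became 0.20 (adjusted p = 0.795) without it (edgeR).

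The feedback genes, which canonical signalling induces in many tissues, had 2 of 5 tested members raised and 0 lowered, where 16.4% and 15.7% of all genes were. The 5 estimates ran from 0.09 to 1.39, with a median of 0.37. AXIN2 stood at 307, 210.2 and 286 normalised counts in the vehicle libraries, 353, 315 and 293 in the VPA libraries and 272, 228 and 233 in the VPA+Rapamycin libraries. The vehicle and VPA libraries of AXIN2 overlapped (log2 fold change 0.26 ± 0.17, adjusted p = 0.267, edgeR), and it passed in 0 of 14 refits (adjusted p from 0.106 to 0.661). LEF1 (ENSG00000138795, chr4:108047545-108168956, minus strand), a nuclear partner of beta-catenin that is also its target, rose 2.63-fold. LEF1 stood at 51.9, 32.7 and 117 normalised counts in the vehicle libraries, 188, 183 and 159 in the VPA libraries and 227, 155 and 133 in the VPA+Rapamycin libraries. The vehicle libraries spread from 32.7 to 117, all below the treated libraries (log2 fold change 1.39 ± 0.36, adjusted p = 0.0132, edgeR), and LEF1 passed in all 14 refits, with estimates of 1.07 to 2.05, the highest of them without vehicle replicate 3. NKD1, an inhibitor that binds Dishevelled, rose 1.30-fold. NKD1 stood at 585, 449.8 and 530.4 normalised counts in the vehicle libraries, 669, 653 and 706 in the VPA libraries and 642, 584 and 638 in the VPA+Rapamycin libraries. The VPA libraries lay above vehicle (log2 fold change 0.37 ± 0.13, adjusted p = 0.0442, edgeR), but the call was lost without vehicle replicate 2 or any of the VPA libraries (adjusted p = 0.105 to 0.186) and among protein-coding genes alone (adjusted p = 0.0569). ZNRF3 and NOTUM did not pass (log2 fold change 0.09 ± 0.12, adjusted p = 0.618 for ZNRF3, and log2 fold change 0.46 ± 0.39, adjusted p = 0.395 for NOTUM, a carboxylesterase that removes the lipid of WNT ligands). Without vehicle replicate 3 the estimate for NOTUM was 0.16 (adjusted p = 0.773, edgeR).

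**Figure D4:**
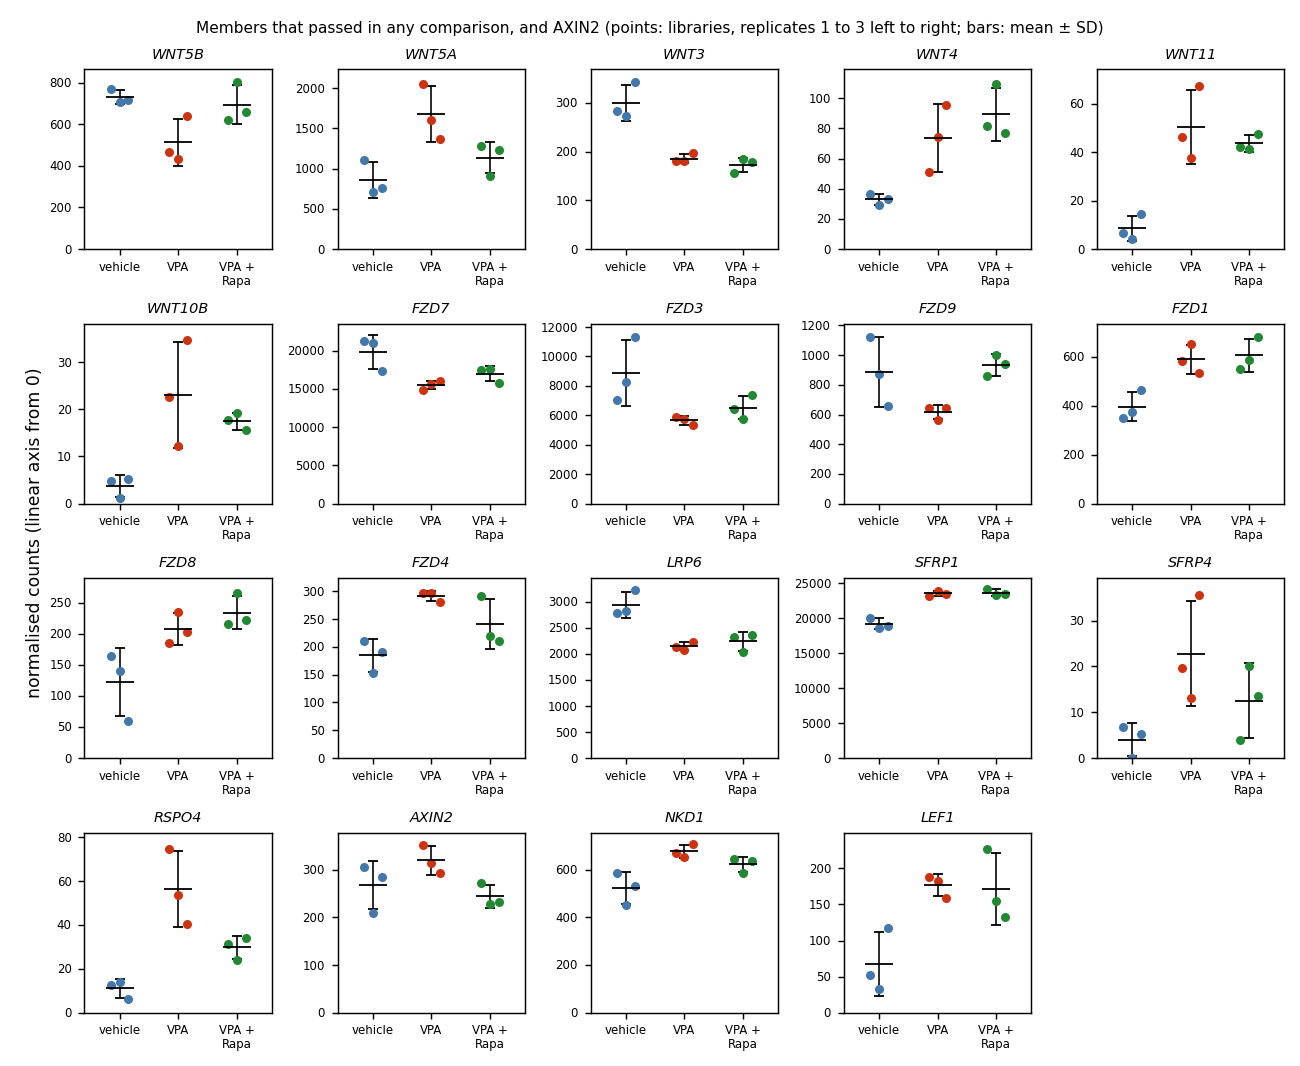
Normalised counts (linear axes from 0) of the 18 members that passed in any comparison and of AXIN2, in vehicle, VPA and VPA+Rapamycin. Points are libraries, in the order of replicates 1 to 3, and bars the mean ± SD. WNT5A and RSPO4 are highest in VPA, FZD9 and WNT5B lowest, whereas WNT11, WNT4, LEF1 and SFRP1 are similar in VPA and VPA+Rapamycin.

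Adding Rapamycin to VPA changed 2 of the 38 members tested, with 1 higher (2.63%) and 1 lower (2.63%), where 3.01% of all 17317 genes tested were called higher and 3.73% lower. Of the protein-coding genes tested, 3.23% were called higher and 4.45% lower. The median log2 fold change was 0.02 over the members and 0.004 over all genes, and 12 members had an unadjusted p under 0.05. FZD9 was 1.51-fold higher in VPA+Rapamycin than in VPA (log2 fold change 0.60 ± 0.09, adjusted p = 0.000813, edgeR), and its libraries did not overlap. The values given above place VPA+Rapamycin inside the range of vehicle. Of 14 refits, that of all 9 libraries together was the single one to lose this call (adjusted p = 0.109). WNT5A was lower at 0.679 of its VPA level (log2 fold change -0.56 ± 0.13, adjusted p = 0.0131, edgeR), again with no overlap. Without VPA replicate 1, the library with the most WNT5A, the estimate was -0.39 and the call was lost (adjusted p = 0.0860), as it was with DESeq2 (adjusted p = 0.114) and in the fit of all 9 libraries (adjusted p = 0.198). DESeq2 called 2 members higher, FZD9 and WNT5B, and 0 lower. With edgeR, WNT5B lay just outside the threshold (log2 fold change 0.44 ± 0.13, adjusted p = 0.0534, edgeR), with an adjusted p of 0.00210 to 0.250 over the alternatives. Among single libraries left out, the count of higher members was 3 without VPA+Rapamycin replicate 2 and 2 without VPA replicate 3 or VPA+Rapamycin replicate 1, and the count of lower members was 0 without VPA replicate 1. Over all genes, 477, 337 and 533 were called higher in that order, and 355 lower without VPA replicate 1. With every library these counts were 522 and 646. The members gained were WNT5B without VPA replicate 3 or VPA+Rapamycin replicate 1 (adjusted p = 0.00760 and 0.0311), and FZD3 and SFRP2 without VPA+Rapamycin replicate 2 (adjusted p = 0.0265 and 0.0460).

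Other members had their VPA+Rapamycin libraries apart from VPA without passing. In all, the libraries of the 2 groups did not overlap for 13 of 38 members (34.2%), against 25.4% of all genes tested. Of those that did not pass, AXIN2, RSPO4 and DKK3 had the smallest p. AXIN2 was lower in each VPA+Rapamycin library than in each VPA library (log2 fold change -0.39 ± 0.13, adjusted p = 0.0801, edgeR), and so was RSPO4 (log2 fold change -0.91 ± 0.32, adjusted p = 0.0959, edgeR). DKK3 was higher in each (log2 fold change 0.22 ± 0.08, adjusted p = 0.0997, edgeR). For WNT11, WNT4, LEF1, FZD1 and SFRP1, all raised by VPA, the estimates of the further change were -0.21, 0.28, -0.04, 0.04 and 0.01, with adjusted p of 0.737, 0.571, 0.938, 0.867 and 0.958 (edgeR). WNT3 and LRP6, lowered by VPA, had estimates of -0.10 (adjusted p = 0.769) and 0.06 (adjusted p = 0.689). A p that misses the threshold does not show that the conditions are alike, and the VPA libraries enter both comparisons.

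VPA+Rapamycin against vehicle called 8 of 37 members higher (21.6%) and 2 lower (5.41%), where 9.81% of all 17383 genes tested were called higher and 9.22% lower. Of the protein-coding genes tested, 11.1% were called higher and 9.72% lower. The median log2 fold change was 0.11 over the members and -0.001 over all genes, and 13 members had an unadjusted p under 0.05. The libraries of the 2 groups did not overlap for 11 of 37 members (29.7%), against 38.5% of all genes tested. Of the 8, 3 (WNT11, WNT10B and RSPO4) passed the filter through the treated group alone. WNT11 rose 5.04-fold (log2 fold change 2.33 ± 0.45, adjusted p = 0.00643, edgeR) and WNT4 2.70-fold (log2 fold change 1.44 ± 0.27, adjusted p = 0.00559, edgeR), and both passed in every refit that tested them. Without vehicle replicate 3 the estimate for WNT11 was 2.92 (adjusted p = 0.00100). WNT10B rose 4.53-fold (log2 fold change 2.18 ± 0.59, adjusted p = 0.0255) and RSPO4 2.69-fold (log2 fold change 1.43 ± 0.44, adjusted p = 0.0431). LEF1 was again higher (log2 fold change 1.35 ± 0.39, adjusted p = 0.0346, and 2.01 (adjusted p = 0.000384) without vehicle replicate 3), as were FZD1 (log2 fold change 0.62 ± 0.15, adjusted p = 0.0167) and SFRP1 (log2 fold change 0.30 ± 0.09, adjusted p = 0.0393). FZD8, a further Frizzled receptor, passed here and not in VPA against vehicle. FZD8 stood at 165, 140.5 and 60.1 normalised counts in the vehicle libraries, 185, 234 and 203 in the VPA libraries and 215, 265 and 222 in the VPA+Rapamycin libraries. Vehicle replicate 3 was the lowest by far (log2 fold change 0.94 ± 0.30, adjusted p = 0.0492, edgeR), and without it the estimate was 0.62 (adjusted p = 0.0303).

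WNT3 and LRP6 were the lowered members in VPA+Rapamycin (log2 fold change -0.79 ± 0.16, adjusted p = 0.00892 for WNT3, and log2 fold change -0.39 ± 0.11, adjusted p = 0.0320 for LRP6, edgeR). AXIN2 did not pass (log2 fold change -0.13 ± 0.18, adjusted p = 0.653, edgeR). WNT5A, WNT5B, FZD9, FZD7, FZD3, FZD4 and NKD1, which had passed in VPA against vehicle, did not pass here, with estimates of 0.41, -0.07, 0.08, -0.22, -0.44, 0.38 and 0.25 in that order. Whether these differ from the estimates for VPA is what the comparison of VPA+Rapamycin with VPA tests, and it called WNT5A and FZD9 alone among them. Without vehicle replicate 1, WNT5A and FZD3 passed against vehicle as well (adjusted p = 0.00991 and 0.0120), and FZD7 did without vehicle replicate 3 (adjusted p = 0.0264). Without vehicle replicate 3 the estimates for WNT5A and FZD3 were 0.32 and -0.23 (adjusted p = 0.209 and 0.183, edgeR). The call on WNT3 was lost without VPA+Rapamycin replicate 1 (adjusted p = 0.0516), and that on LRP6 without vehicle replicate 2 or any of the VPA+Rapamycin libraries (adjusted p = 0.0813 to 0.147). Among the raised members, the call was lost for WNT10B without vehicle replicate 2 or any of the VPA+Rapamycin libraries (adjusted p = 0.0727 to 0.0988). It was lost for RSPO4 without any of the vehicle libraries or any of the VPA+Rapamycin libraries (adjusted p = 0.0550 to 0.145). For LEF1 it was lost without vehicle replicate 1, vehicle replicate 2 or any of the VPA+Rapamycin libraries (adjusted p = 0.0532 to 0.148), and for FZD8 without vehicle replicate 2 or any of the VPA+Rapamycin libraries (adjusted p = 0.0855 to 0.155). FZD1 lost it without vehicle replicate 2, VPA+Rapamycin replicate 2 or VPA+Rapamycin replicate 3 (adjusted p = 0.0527 to 0.0808), and SFRP1 without vehicle replicate 2 or any of the VPA+Rapamycin libraries (adjusted p = 0.0921 to 0.143). The count of raised members was 2 without vehicle replicate 2, VPA+Rapamycin replicate 2 or VPA+Rapamycin replicate 3 and 3 without VPA+Rapamycin replicate 1. Over all genes, 883, 821, 862 and 761 were called higher in that order, against 1705 with every library. The count of lowered members was 0 without VPA+Rapamycin replicate 1, 1 without vehicle replicate 2 or either other VPA+Rapamycin library and 4 without vehicle replicate 3. Over all genes, 534, 771, 635, 677 and 1987 were called lower in that order, against 1602 with every library.

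The rest of the pathway was read from a list of 71 further genes, of which 69 are in the tables. VPA raised 11 and lowered 12 of the 65 tested, a share of 35.4% against 32.1% of all genes, with a median log2 fold change of -0.10. Of the inhibitors outside the families above, 5 of 11 tested rose and 0 fell. Over all genes tested, 16.4% were called higher and 15.7% lower. KREMEN2, which binds DKK1 to remove LRP6 from the surface, changed most (log2 fold change 2.01 ± 0.20, adjusted p = 6.94e-05, edgeR), and KREMEN1 rose too (log2 fold change 0.85 ± 0.14, adjusted p = 0.00112). DRAXIN, an axon guidance protein that antagonises WNT, rose (log2 fold change 0.86 ± 0.10, adjusted p = 0.000166), as did SOSTDC1 (log2 fold change 1.51 ± 0.44, adjusted p = 0.0222) and DACT3 (log2 fold change 0.35 ± 0.11, adjusted p = 0.0366). In the destruction complex and its relay, 4 of 17 fell and 0 rose, a share of 23.5% against 32.1% of all genes. Those that fell included GSK3B, the kinase that marks beta-catenin for degradation (log2 fold change -0.44 ± 0.11, adjusted p = 0.01004), and the relay protein DVL3 (log2 fold change -0.53 ± 0.09, adjusted p = 0.00165). WLS, which carries WNT ligands to the surface, rose (log2 fold change 0.46 ± 0.11, adjusted p = 0.00908).

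Of 11 nuclear factors 2 rose, TCF7 (log2 fold change 1.06 ± 0.18, adjusted p = 0.00120, edgeR) and TLE2 (log2 fold change 0.87 ± 0.28, adjusted p = 0.0335), and 2 fell, PYGO1 (log2 fold change -0.58 ± 0.13, adjusted p = 0.00527) and TLE4 (log2 fold change -0.31 ± 0.11, adjusted p = 0.0426). This is a share of 36.4%, against 32.1% of all genes under VPA. TCF7 binds DNA as LEF1 does, and TLE proteins repress at the same sites. Among 15 alternative receptors and polarity genes, 2 rose and 4 fell (40% against 32.1% of all genes), the latter including VANGL2 (log2 fold change -0.44 ± 0.09, adjusted p = 0.00388) and CELSR2 (log2 fold change -0.48 ± 0.10, adjusted p = 0.00540). The raised ones included GPC3 (log2 fold change 0.57 ± 0.12, adjusted p = 0.00539, edgeR). GPC3 was also higher in VPA+Rapamycin against vehicle (log2 fold change 0.77 ± 0.13, adjusted p = 0.00281, edgeR). Of the 9 tested target genes, which many signals besides WNT control, MYC rose (log2 fold change 1.09 ± 0.19, adjusted p = 0.00144) and the cyclins CCND1 (log2 fold change -1.11 ± 0.11, adjusted p = 6.30e-05) and CCND2 (log2 fold change -0.91 ± 0.12, adjusted p = 0.000274) fell. The share called was 33.3%, against 32.1% of all genes. In VPA+Rapamycin against VPA, 5 of 66 were higher and 2 lower (10.6% against 6.74% of all genes), and KREMEN2 (log2 fold change -0.57 ± 0.13, adjusted p = 0.0110) and APCDD1 (log2 fold change -0.35 ± 0.10, adjusted p = 0.0373), an inhibitor at the membrane, were the lower ones. The higher ones were GPC4 (log2 fold change 0.49 ± 0.07, adjusted p = 0.000658), FRAT2 (log2 fold change 0.55 ± 0.12, adjusted p = 0.00893), TLE4 (log2 fold change 0.37 ± 0.08, adjusted p = 0.00940), TCF7L1 (log2 fold change 0.27 ± 0.07, adjusted p = 0.0282) and RYK (log2 fold change 0.25 ± 0.07, adjusted p = 0.0440). In VPA+Rapamycin against vehicle, 9 of 64 were higher and 7 lower (25% against 19.0% of all genes).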

How the data were processed

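Bulk RNA-seq of SCOs was deposited as 1 table for each pair of conditions. Per the labels, poly-A RNA was captured on beads and primed with random hexamers (NEBNext Ultra kit), and the submitters' processing notes name HISAT2 2.0.5 and featureCounts 1.5.0-p3. The deposited counts are whole reads per gene without normalisation, and the authors' FPKM divides them by gene length and a total per library. The tables also hold the authors' fold changes and p-values, which were not used. The genome build and the use of strand in counting are not given in the sources used here. Chromosome, start, end and strand of all 51 members equal those of GENCODE 29 on GRCh38.

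Groups were taken from the labels. For a given pair, the 6 libraries of its table were fitted with edgeR 4.0.16 in R 4.3.3 (TMM, filterByExpr defaults, quasi-likelihood test, no replicate block), with Benjamini-Hochberg adjustment across the genes tested. Standard errors follow from the estimate and its F statistic. Nothing in the labels says that the libraries of a group are separate cultures. The paper describes the columns of its RNA-seq heatmaps as clones, so the libraries of a group may be clones of WTC. The p-values measure the spread between these libraries. Depth was 15290436 to 17417478 reads per library. Named were AXIN2, LEF1, each member that passed in any comparison and the member of each family with the highest FPKM in vehicle. Of the other pathway genes, the rule names at most the 12 with the smallest p in each comparison. WNT1, WNT3A, WNT6, WNT7B, WNT9B, WNT16, RSPO3, LGR5, LRP5, DKK1, NOTUM, WLS, GSK3B, SOSTDC1, DACT3, TLE2 and TLE4 (under VPA) were named after their values were seen, and values per library are given for more members than the 12 that the rule set. An overlapping gene is named where its mean count exceeds 10% of that of the member. Alternatives were DESeq2 1.42.0, upper-quartile and RLE normalisation, no filter, a minimum of 10 counts per library, a joint fit of the 9 libraries, a replicate block, protein-coding genes, calls with a log2 change of 1 or more in size, and each library left out. Methods were tested on simulated data. The members and lists were chosen with earlier results of these data known.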

Additional observations from a re-analysis of the deposited data

How the results depend on the processing

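Over the re-estimates of the named members, 1107 kept their direction and side of the threshold, 70 lost a call, 27 gained one and 45 changed sign. Counts of members that moved by more than 1.5 times were as follows. With at least 10 counts in every library, VPA raised 7 members and VPA+Rapamycin against vehicle raised 5, since the low members are then not tested. Where calls also needed a log2 change of 1 or more in size, the counts were 6 higher and 0 lower for VPA, 0 and 0 for VPA+Rapamycin against VPA, and 5 and 0 for VPA+Rapamycin against vehicle. In VPA+Rapamycin against VPA, 2 were higher with DESeq2, no filter, the replicate block or protein-coding genes, and 0 with all 9 libraries, while 0 were lower with DESeq2 or all 9 libraries. Over all genes, the fit of all 9 libraries called 44 higher and 69 lower, against 522 and 646 in the main fit. In VPA+Rapamycin against vehicle, 4 were lower with no filter or all 9 libraries. The cause was not tested. Leaving out 1 library gave 6 to 15 higher and 3 to 8 lower members for VPA, 1 to 3 and 0 to 1 for VPA+Rapamycin against VPA, and 2 to 9 and 0 to 4 for VPA+Rapamycin against vehicle.

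Changes of sign concerned members that had not passed. WNT7A under VPA was 0.023 with upper-quartile normalisation and 0.0023 without filter, and SFRP2 in VPA+Rapamycin against vehicle was 0.016 with upper-quartile normalisation. With 1 library left out, the log2 fold change under VPA was -0.11 to 0.077 for WNT7A, -0.84 to 1.59 for RSPO1, -2.99 to 1.01 for WNT3A, -0.79 to 0.20 for DKK1, -0.21 to 0.14 for WNT7B and -0.23 to 0.10 for LRP5. In VPA+Rapamycin against VPA it was -0.29 to 0.11 for LEF1, -0.0087 to 0.020 for SFRP1, -0.054 to 0.12 for FZD1, -0.38 to 0.061 for WNT11, -0.71 to 0.0055 for WNT10B and -0.11 to 0.0075 for ZNRF3. In VPA+Rapamycin against vehicle it was -0.10 to 0.29 for FZD9, -0.18 to 0.0078 for WNT5B, -0.089 to 0.035 for SFRP2, -1.34 to 1.10 for RSPO1, -0.024 to 0.11 for ZNRF3, -0.26 to 0.74 for DKK1, -0.19 to 0.056 for LGR5, -0.046 to 0.28 for LRP5 and -0.41 to 0.089 for NOTUM. There DKK1 was also -0.0045 with DESeq2, -0.0051 with RLE normalisation and -0.014 among protein-coding genes. LGR5 under VPA gained a call without vehicle replicate 1 (adjusted p = 0.0144).

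The deposited column names repeat the same codes in each condition, so same-numbered libraries may share a clone, which the labels do not state. These libraries deviated from their group means with correlations of -0.057 to 0.143, below 0.1 in 8 of 9 pairs. Such correlations over all genes cannot decide whether the samples are paired. The main fits had no replicate block, and the fits with it are given here. With the replicate block, VPA raised 11 and lowered 6 members, VPA+Rapamycin against VPA called 2 higher and 1 lower, and VPA+Rapamycin against vehicle 8 higher and 3 lower. The block lost NKD1 (adjusted p = 0.0764) and SFRP1 against vehicle (adjusted p = 0.0619), gained FZD8 under VPA (adjusted p = 0.0245), WNT5B against VPA (adjusted p = 0.0107), and WNT5A and FZD3 in VPA+Rapamycin against vehicle (adjusted p = 0.0279 and 0.0219), and turned RSPO1 under VPA to 0.24. Among the other pathway genes it gave 3 higher and 4 lower in VPA+Rapamycin against VPA, and 14 higher against vehicle.

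Depth limits the members near 3 reads per library, whose values cannot be told from 0. In such members the change rests on few reads.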
